A study of Arabidopsis thaliana with 8 samples.

Results

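Transcripts of 10 genes of jasmonate synthesis and response were followed in guard cell preparations of Arabidopsis leaves under control conditions and after heat stress, in wild-type plants and in a mutant of β-amylase 1 (bam1). The genes form a fixed list of loci, drawn up with earlier results of these data known, and were found in the scanner output through the locus to which each probe is assigned. All 10 had a probe, among 25410 loci with a probe on the array, and 18 probes read them. Of these 18 probes, 16 passed the filter on dim signals, and every gene kept at least 1 probe. LOX2 (AT3G45140, chromosome 3) and AOS (AT5G42650, chromosome 5) encode enzymes of jasmonate synthesis. JAZ1 (AT1G19180), JAZ2 (AT1G74950), JAZ5 (AT1G17380) and JAZ8 (AT1G30135) on chromosome 1, JAZ7 (AT2G34600) on chromosome 2 and JAZ10 (AT5G13220) on chromosome 5 encode repressors of the response. VSP1 (AT5G24780) and VSP2 (AT5G24770), neighbouring genes on chromosome 5, encode vegetative storage proteins and serve as output genes.

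Jasmonates are made from linolenic acid of plastid membranes, which 13-lipoxygenases oxygenate and allene oxide synthase converts further before the last steps in the peroxisome. The conjugate jasmonoyl-isoleucine joins the receptor COI1 to JAZ proteins, which are then degraded and release the MYC transcription factors. MYC factors in turn induce VSP genes and most JAZ genes, so that the repressors are themselves response genes. In leaves the pathway is known from wounding and insect attack, and in guard cells from stomatal movements, where the bacterial mimic coronatine opens closed stomata through COI1.

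Plants of Col-0, the wild type, and of bam1, a T-DNA insertion line in the Col-0 background that stands for a single insertion, were 5 weeks old at harvest. Control plants were kept at 22 °C by day and 18 °C by night, and heat-stressed plants at 32 °C by day and 28 °C by night for 3 d. Both genotypes in both conditions made 4 groups with 2 biological replicates in each, a replicate being a pool of 5 to 8 plants that was hybridized in 1 colour to an Agilent array. The first replicates of all groups shared slide 1, and the second replicates shared slide 2. Values below are quantile-normalized log2 signals, a difference of 1 being a 2-fold change. Each gene is read by its probe with the highest mean signal, and levels of different probes are not set against each other. A feature was called at an adjusted p below 0.05 (limma, Benjamini-Hochberg over the 29615 probes tested) together with a change of more than 2-fold.

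On single arrays, 61.3% to 70.8% of the 43603 probes gave signals well above background, and the replicates of a group correlated with r from 0.977 to 0.986. The signal of BAM1, the gene targeted in the mutant, lay between 11.19 and 12.22 on the 4 Col-0 arrays and between 6.81 and 7.67 on the 4 bam1 arrays (difference -4.69, p = 0.0286 in a two-sided exact permutation test, which cannot go lower with 4 against 4 arrays). All 8 heat shock genes listed were called higher with heat in each genotype. Under heat their estimates were higher in bam1 than in Col-0, by 1.3 to 3.14 (median 2.33). At an unadjusted p under 0.05 in limma, 8 of 8 differed between the genotypes under heat, where 3.27% of all probes did. Their heat responses differed by a median of 2.2, with 6 of 8 under that p, against 2.75% of all probes. None was called in these 2 comparisons. Of the cell type lists, each of the 8 arrays showed all 10 guard cell markers well above background, and likewise all 7 mesophyll, all 8 vasculature and all 6 epidermis markers. Some of these genes, such as those for Rubisco and light-harvesting proteins, are also expressed in guard cells, and which cells the RNA came from was not tested. Fewer cells of a type and less RNA per cell cannot be told apart in such preparations.

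Heat raised the output genes and some of the repressors in both genotypes, while the transcripts of the synthesis enzymes did not pass the test. In Col-0, JAZ7, JAZ8, VSP1 and VSP2 were up-regulated, 4 of the 10 genes (40.0%), where 11.4% of all probes tested were called higher. In bam1, JAZ5, JAZ8, VSP1 and VSP2 were up-regulated, again 4 of 10, where 11.0% of all probes tested were called higher. None of the 10 was called down-regulated in limma, where 10.2% of all probes were called lower in Col-0 and 11.4% in bam1. At an unadjusted p under 0.05, 2 of the 10 were lower in Col-0 (AOS and JAZ1) and 1 in bam1 (AOS), where 22.0% and 23.4% of all probes were lower at that threshold. The median change of the 10 genes was 0.66 in Col-0 and 0.33 in bam1, against 0.01 over all probes tested in each genotype. The heat comparisons of Col-0 and bam1 share no arrays, but all arrays enter 1 fit and share its estimate of the spread.

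**Figure D1:**
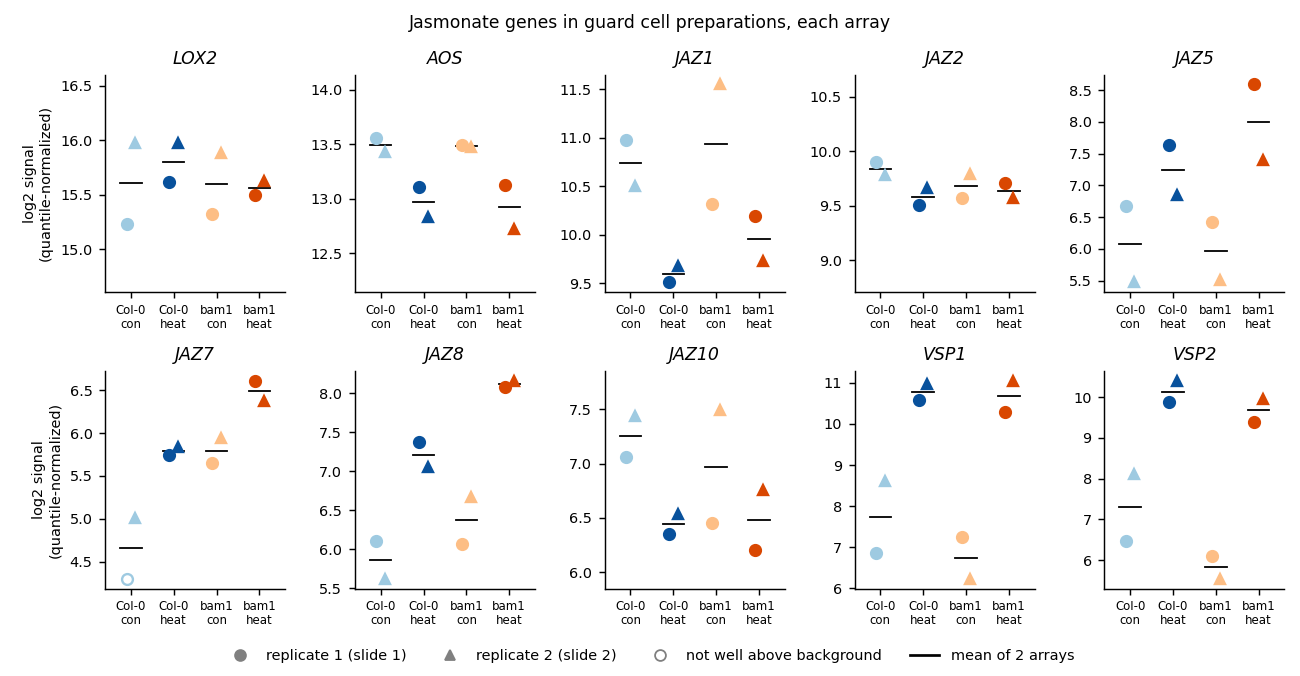
Quantile-normalized log2 signal (y axis, a scale of its own in each panel) of the 10 jasmonate genes in the 4 groups (x axis). Circles are replicate 1, triangles replicate 2, lines the mean of both, and the open circle marks the JAZ7 value that was not well above background. VSP1 and VSP2 lie above 9 on all 4 heat arrays and below 9 on all 4 control arrays.

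Neither synthesis enzyme was called with heat. LOX2, the plastid 13-lipoxygenase that is abundant in leaves, gave log2 signals of 15.23 and 15.98 in Col-0 control plants, 15.62 and 15.98 in heat-stressed Col-0, 15.32 and 15.88 in bam1 control plants, and 15.50 and 15.63 in heat-stressed bam1. The 4 groups overlapped, and replicate 2 was above replicate 1 in each of them. The heat change of LOX2 was 0.19 ± 0.31 (SE) in Col-0 (limma, adjusted p = 0.664, 95% interval -0.55 to 0.93) and -0.03 ± 0.31 in bam1 (adjusted p = 0.947, interval -0.77 to 0.71). The sign for LOX2 depended on the scaling: with each array set to its 75th percentile the change was -0.43 in Col-0 (adjusted p = 0.125) and -0.68 in bam1 (adjusted p = 0.0325, under 2-fold), and the table that the authors deposited gave the same values to 2 decimals. Its 3 other probes changed by -0.39 to 0.13 in Col-0 and by -0.41 to -0.04 in bam1, and none of them was called.

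AOS encodes allene oxide synthase, the enzyme that commits the lipoxygenase product to the jasmonate route. Its log2 signals were 13.56 and 13.43 in Col-0 control plants against 13.11 and 12.83 in heat-stressed Col-0, and 13.49 and 13.47 in bam1 control plants against 13.13 and 12.72 in heat-stressed bam1. All 4 heat arrays lay below all 4 control arrays. The change of AOS was -0.53 ± 0.19 in Col-0 (95% interval -0.99 to -0.06, adjusted p = 0.0758) and -0.55 ± 0.19 in bam1 (-1.01 to -0.09, adjusted p = 0.0654), which missed the threshold in each genotype. With the slide as a replicate block the adjusted p was 0.0259 in Col-0 and 0.022 in bam1, and with the deposited log2 table it was 0.0206 (change -0.76) and 0.0151 (-0.82), each still under 2-fold.

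Of the 6 JAZ genes, 3 were called higher in at least 1 genotype and the estimates of the other 3 were below 0. JAZ8, an atypical repressor that lacks the usual degradation motif and resists the hormone, was called in both genotypes. Its log2 signals were 6.10 and 5.62 in Col-0 control plants, 7.37 and 7.05 in heat-stressed Col-0, 6.07 and 6.67 in bam1 control plants, and 8.08 and 8.16 in heat-stressed bam1. Every heat array thus lay above every control array, and both bam1 heat arrays above both Col-0 heat arrays. The rise was 1.35 ± 0.27 in Col-0 (2.54-fold, adjusted p = 0.01) and 1.75 ± 0.27 in bam1 (3.37-fold, adjusted p = 0.00378). Within slides 1 and 2 it was 1.27 and 1.42 in Col-0 and 2.01 and 1.49 in bam1. Without Col-0 heat replicate 1 the Col-0 call was lost (change 1.19, adjusted p = 0.0626).

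JAZ7, another divergent JAZ protein, read 4.30 and 5.01 in Col-0 control plants, the first of which was not well above background, and 5.75 and 5.84 in heat-stressed Col-0. In bam1 it read 5.65 and 5.94 without and 6.61 and 6.37 with heat. Heat arrays lay above control arrays within each genotype, and the bam1 control arrays were at the level of the Col-0 heat arrays. The rise was 1.14 ± 0.26 in Col-0 (2.20-fold, adjusted p = 0.0165), and in bam1 the change was 0.70 ± 0.26 (adjusted p = 0.0794). The Col-0 call was lost without Col-0 control replicate 1 (0.78, adjusted p = 0.0521), without Col-0 heat replicate 1 (1.19, adjusted p = 0.0679) and without Col-0 heat replicate 2 (1.1, adjusted p = 0.085).

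JAZ5, a further JAZ repressor, passed the threshold in bam1 and missed it in Col-0, where it changed in the same direction. It read 6.68 and 5.47 in Col-0 control plants, 7.64 and 6.84 in heat-stressed Col-0, 6.43 and 5.51 in bam1 control plants, and 8.59 and 7.40 in heat-stressed bam1. Replicate 1 was above replicate 2 in every group, by 0.79 to 1.21. The change was 1.17 ± 0.60 in Col-0 (adjusted p = 0.174) and 2.02 ± 0.60 in bam1 (4.06-fold, adjusted p = 0.0383). With the slide as a replicate block, which takes up that offset, JAZ5 was called in Col-0 too (adjusted p = 0.00273) and its adjusted p in bam1 was 0.000612. Without the block, the bam1 call was lost when any of 5 arrays was left out, namely replicates 1 and 2 of bam1 control and of Col-0 heat and replicate 1 of bam1 heat, with adjusted p from 0.0527 to 0.175. It was also lost where no dim probes were filtered out (adjusted p = 0.0776).

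JAZ1, JAZ2 and JAZ10 did not rise. JAZ1, among the JAZ proteins that are degraded readily, read 10.98 and 10.50 in Col-0 control plants, 9.51 and 9.68 in heat-stressed Col-0, 10.32 and 11.55 in bam1 control plants, and 10.19 and 9.73 in heat-stressed bam1. All 4 heat values lay below all 4 control values, and the bam1 control replicates were 1.22 apart. The change was -1.14 ± 0.41 in Col-0 (95% interval -2.13 to -0.15, adjusted p = 0.0735) and -0.97 ± 0.41 in bam1 (-1.96 to 0.02, adjusted p = 0.111). JAZ1 passed as lower in Col-0 where the fit held only the Col-0 arrays (adjusted p = 0.0273), with limma's trend and robust options (adjusted p = 0.047), and without either bam1 control replicate (adjusted p = 0.0204 each). It passed in bam1 without bam1 control replicate 1 (-1.59, adjusted p = 0.0184), and the equal-variance test of the methods, taken at an unadjusted threshold, called it lower in Col-0.

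JAZ10, whose splice forms differ in how readily they are degraded, read 7.06 and 7.44 in Col-0 control plants, 6.35 and 6.54 in heat-stressed Col-0, 6.45 and 7.49 in bam1 control plants, and 6.21 and 6.76 in heat-stressed bam1. Its heat arrays lay below the control arrays in Col-0 but overlapped with them in bam1, and replicate 2 was above replicate 1 in all 4 groups. The change was -0.80 ± 0.37 in Col-0 (adjusted p = 0.137) and -0.48 ± 0.37 in bam1 (adjusted p = 0.347), and a dimmer probe of the same gene gave -0.30 and -0.73. With the slide as a replicate block in limma the adjusted p of JAZ10 was 0.0277 in Col-0, where its change was under 2-fold, and 0.114 in bam1. JAZ2 varied least of the 10 genes, between 9.51 and 9.90 over the 8 arrays, with changes of -0.26 ± 0.16 in Col-0 (95% interval -0.64 to 0.13, adjusted p = 0.254) and -0.04 ± 0.16 in bam1 (-0.42 to 0.35, adjusted p = 0.881). Changes of JAZ2 of 2-fold or more thus lay outside both intervals.

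The output genes VSP1 and VSP2 rose most. Both encode vegetative storage proteins, storage proteins related to acid phosphatases that leaves make in response to jasmonate and wounding. VSP1 read 6.87 and 8.6 in Col-0 control plants, 10.59 and 10.98 in heat-stressed Col-0, 7.24 and 6.23 in bam1 control plants, and 10.29 and 11.05 in heat-stressed bam1. VSP2 read 6.48 and 8.12 in Col-0 control plants, 9.87 and 10.40 in heat-stressed Col-0, 6.10 and 5.54 in bam1 control plants, and 9.40 and 9.96 in heat-stressed bam1. For both genes every heat array lay above every control array, and the control values were spread more widely than the heat values.

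VSP1 was 8.30-fold higher with heat in Col-0 (3.05 ± 0.62, adjusted p = 0.011) and 15.3-fold higher in bam1 (3.93 ± 0.62, adjusted p = 0.00435). VSP2 was 7.13-fold higher in Col-0 (2.83 ± 0.54, adjusted p = 0.00907) and 14.5-fold higher in bam1 (3.86 ± 0.54, adjusted p = 0.00299). The size of the rise depended on the processing. Over 17 alternative fits the VSP1 estimate ran from 2.19 to 3.92 in Col-0 and from 2.88 to 4.44 in bam1. For VSP2 it ran from 2.01 to 3.65 and from 2.38 to 4.14. With an array left out, VSP2 in bam1 was no lower than 3.57. Within slides 1 and 2, VSP2 rose by 3.39 and 2.28 in Col-0 and by 3.29 and 4.42 in bam1. A second probe of VSP1 gave 1.84 (adjusted p = 0.0495) and 3.15 (adjusted p = 0.00771), and a second probe of VSP2 gave 3.23 and 4.22, all of which were called. The 2 remaining probes of VSP1 were each well above background on only 2 of 8 arrays and were not tested. Without Col-0 heat replicate 2 both Col-0 calls were lost (VSP1 2.86, adjusted p = 0.0635, and VSP2 2.57, adjusted p = 0.0574), while in bam1 both were called in all 8 fits that left out an array. The genes are closely similar neighbours, and whether a probe of one also binds transcripts of the other was not tested.

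**Figure D2:**
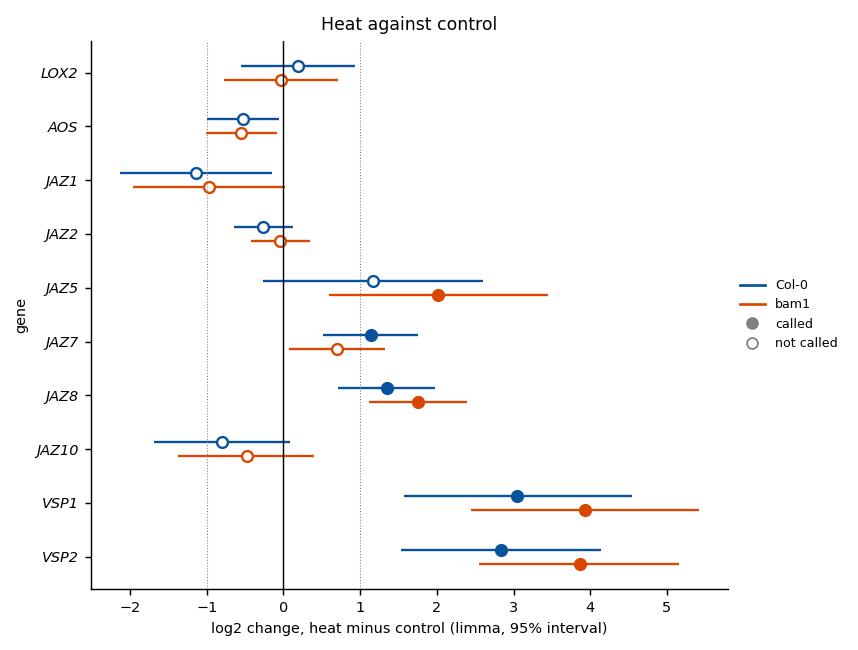
Change with heat (x axis, log2 heat minus control) of each jasmonate gene (y axis) in Col-0 and bam1, as the limma estimate with its 95% interval. Filled circles were called, open circles were not, and dotted lines mark a 2-fold change. VSP1, VSP2 and JAZ8 were called in both genotypes, JAZ7 in Col-0 and JAZ5 in bam1.

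The same direction was not seen over the whole pathway. Of 40 further jasmonate genes, 39 had a probe and 36 were tested. In Col-0, 3 of the 36 were called higher (8.33%) and 5 lower (13.9%), close to the shares over all probes given above, and the counts in bam1 were the same. Their median change was -0.21 in Col-0 and -0.06 in bam1. Of 5 further outputs tested in the MYC branch, to which VSP1 and VSP2 belong, 1 was called higher and 0 lower in each genotype. That one, CLH1 (a chlorophyllase induced by jasmonate), rose by 1.27 in Col-0 (adjusted p = 0.0175) and by 1.2 in bam1 (adjusted p = 0.0203). CORI3, a coronatine-induced C-S lyase, changed by 0.75 (adjusted p = 0.0121) and 0.83 (adjusted p = 0.00832), less than 2-fold, and TAT3, a tyrosine aminotransferase, by 1.49 (adjusted p = 0.082) and 1.37 (adjusted p = 0.102), which was not called. The transcription factors NAC019 (-0.04 in Col-0 and 0.12 in bam1) and NAC055 (2.03, adjusted p = 0.0954, and 1.4, adjusted p = 0.219) were not called either. MYC4, one of the MYC factors that JAZ proteins bind, rose by 1.37 in bam1 (adjusted p = 0.00168) and changed by 0.87 in Col-0 (adjusted p = 0.00858).

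The outputs of the ERF branch, which jasmonate drives together with ethylene, held both directions in Col-0 and were mostly lower with heat in bam1. Of 4 tested, 1 was called higher and 1 lower in Col-0, and 0 higher and 3 lower in bam1. PDF1.2, a plant defensin, read 7.70 and 8.21 in control plants of Col-0 and 8.50 and 8.04 in those of bam1, and was not well above background on any of the 4 heat arrays. It was at least 14.3-fold lower with heat in Col-0 (adjusted p = 0.0009) and at least 15.1-fold lower in bam1 (adjusted p = 0.00046). For such a bound, each heat array entered with its own value or with the lowest signal that any probe well above background gave on it, whichever was higher. The related PDF1.2b was at least 4.66-fold lower in bam1 (adjusted p = 0.0245) and missed the threshold in Col-0 (adjusted p = 0.0525). ORA59, a transcription factor of this branch, fell by 1.5 in bam1 (adjusted p = 0.0253), and its change in Col-0 was -0.72 (adjusted p = 0.197). ERF1, another factor of the branch, rose by 1.29 in Col-0 (adjusted p = 0.0262) and changed by -0.09 in bam1 (adjusted p = 0.855).

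Beside AOS and LOX2, the synthesis list held both directions. LOX3, a further 13-lipoxygenase, rose by 1.15 in Col-0 (adjusted p = 0.0363) and by 1.11 in bam1 (adjusted p = 0.0392). A dimmer probe of LOX3 did not rise. Its mean log2 signals were 6.63 in control and 5.9 in heat-stressed Col-0, and 6.36 and 6.27 in bam1. The remaining dimmer probes of LOX3 had higher means with heat in both genotypes. OPCL1, which activates the precursor for β-oxidation, fell by 1.48 in Col-0 (adjusted p = 0.00586) and by 1.38 in bam1 (adjusted p = 0.00709). AOC2, an allene oxide cyclase, fell by 1.01 in bam1 (adjusted p = 0.00673), and its change in Col-0 was -0.66 (adjusted p = 0.0307). Of the hormone turnover genes, ST2A, a sulfotransferase, was at least 2.94-fold lower in Col-0 (adjusted p = 0.013), and CYP94C1, which oxidizes jasmonoyl-isoleucine, fell by 1.04 in Col-0 (adjusted p = 0.00838). JAZ11 was the only one of the 6 further JAZ genes to be called, falling by 1.18 in Col-0 (adjusted p = 0.00343), with -0.85 in bam1 (adjusted p = 0.0104). Over the 12 JAZ genes listed here, JAZ5, JAZ7 and JAZ8 were thus the ones called higher in either genotype.

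**Figure D3:**
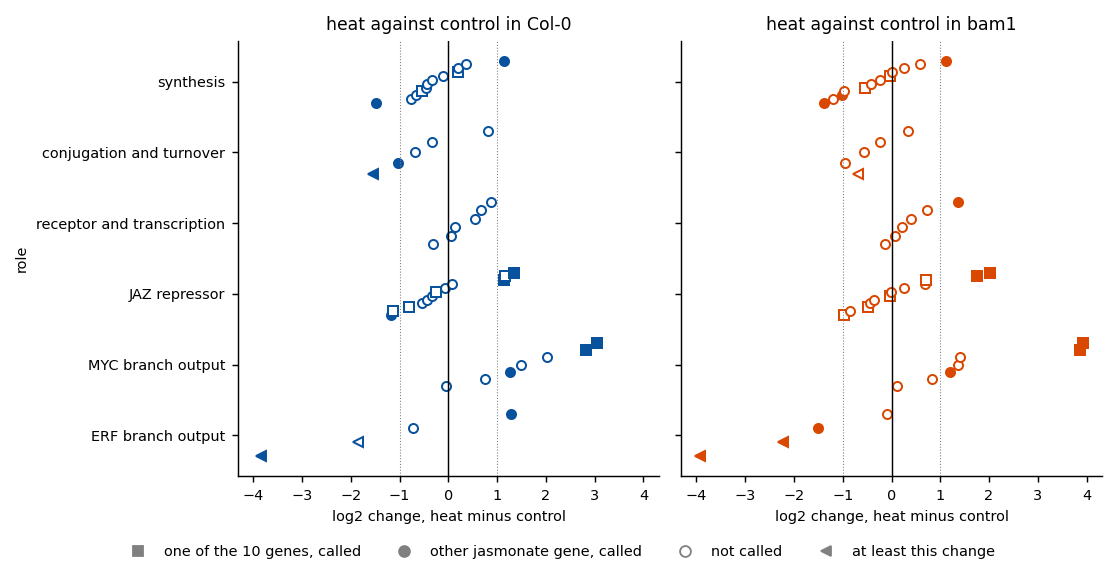
Change with heat (x axis, log2 heat minus control) of the 10 jasmonate genes (squares) and the 36 further ones tested (circles and triangles), by role (y axis), in Col-0 and in bam1. Filled symbols were called and dotted lines mark a 2-fold change. The filled squares of the JAZ repressors and of the MYC branch lie to the right, and triangles, PDF1.2 among them at -3.84 and -3.92, mark the smallest fall that the background allows.

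The question of whether the mutant differed from Col-0 was asked in each condition, over both, and for the heat response itself. None of the 10 genes was called in any of these comparisons in limma. BAM1 itself, at -4.66 under control conditions and -4.72 under heat, was not called in either condition by the same tests. It was called over both conditions (-4.69). A missing call within a condition therefore does not show that the genotypes were equal. Over all 29615 probes, 0.00338% were called between the genotypes under control conditions, 0% under heat, 0.00675% over both conditions, and 0.00338% in the test of unequal heat responses, so that calls were rare for any gene. At an unadjusted p under 0.05, 2 of the 10 genes differed under control conditions, 2 under heat, 3 over both conditions and 0 in the test of unequal heat responses, where the shares over all probes were 4.0%, 3.27%, 4.41% and 2.75%. The equal-variance test of the methods called 0 of the 10 in either condition.

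JAZ7 came nearest to a genotype difference. Each bam1 array lay above both Col-0 arrays of its condition, by 1.35 and 0.92 within slides 1 and 2 under control conditions and by 0.86 and 0.53 under heat. The estimate was 1.14 ± 0.26 under control conditions (unadjusted p = 0.00385, adjusted p = 0.967), 0.69 ± 0.26 under heat (unadjusted p = 0.0344, adjusted p = 1) and 0.92 ± 0.18 over both (95% interval 0.47 to 1.36, adjusted p = 0.72). The value on Col-0 control array 1 that was not well above background enters the first and the last of these. JAZ8 was higher in bam1 by 0.91 ± 0.27 under heat (unadjusted p = 0.0121, adjusted p = 1), where the arrays did not overlap, and by 0.51 ± 0.27 under control conditions, where they did. Over both conditions the estimate for JAZ8 was 0.71 (95% interval 0.26 to 1.16, adjusted p = 0.866).

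VSP2 lay lower in bam1 under control conditions, with no overlap, by -1.48 ± 0.54 (unadjusted p = 0.0315, adjusted p = 1). That difference was -0.38 within slide 1 and -2.59 within slide 2, where Col-0 control replicate 2 gave the highest control value. The brightest VSP1 probe behaved in the same way on slide 2 (-2.37) and the opposite way on slide 1 (0.38), so that the groups overlapped (estimate -1.0, 95% interval -2.48 to 0.49). A second VSP1 probe, well above background on only 1 control array of each genotype, gave -0.29 and -2.76 on slides 1 and 2 (estimate -1.53, interval -2.92 to -0.13). A second VSP2 probe gave -0.05 and -2.7 (estimate -1.37, interval -2.8 to 0.05). Under heat the genotypes differed by -0.12 for VSP1 (interval -1.60 to 1.37) and by -0.46 for VSP2 (interval -1.77 to 0.85). For AOS the intervals were narrow, -0.48 to 0.45 without heat and -0.50 to 0.42 with it.

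The heat response of each gene was estimated to differ between bam1 and Col-0 by between -0.45 (JAZ7) and 1.02 (VSP2), with an adjusted p of 0.999 for every one of the 10. For VSP2 the interval ran from -0.82 to 2.87 and for VSP1 from -1.22 to 2.98, so differences of more than 4-fold were within the error. For VSP2 the difference was -0.09 within slide 1 and 2.14 within slide 2. The genes called in 1 genotype, JAZ7 in Col-0 and JAZ5 in bam1, are therefore not shown to respond differently (JAZ5 0.86, interval -1.17 to 2.88, and JAZ7 -0.45, interval -1.33 to 0.44).

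**Figure D4:**
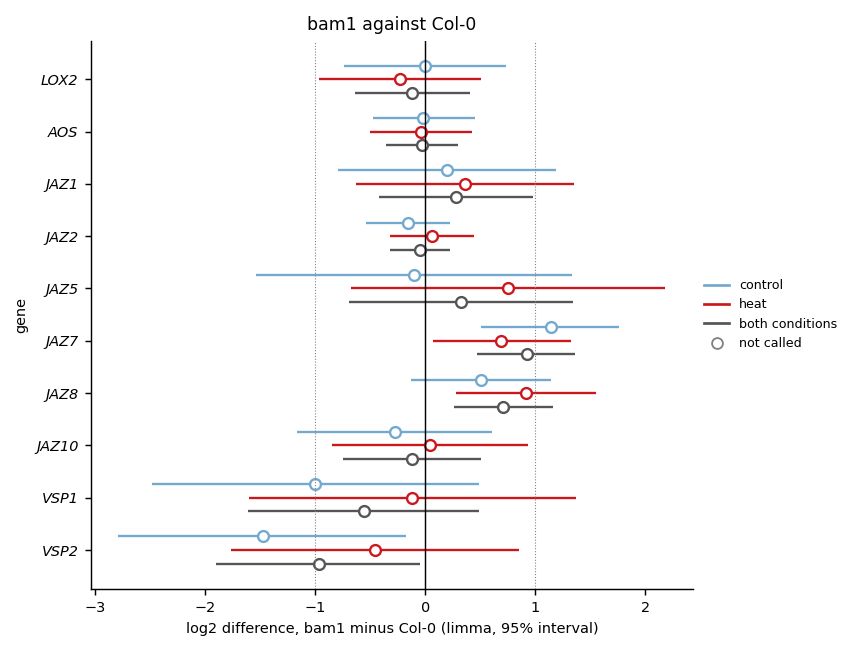
Difference between the genotypes (x axis, log2 bam1 minus Col-0) of each jasmonate gene (y axis) under control conditions, under heat and over both, as the limma estimate with its 95% interval. No gene was called. The intervals of JAZ7 lie above 0 in all 3 comparisons, and those of VSP1 and JAZ5 are the widest.

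Other gene lists were also counted with heat. Over all probes tested, 11.4% were called higher and 10.2% lower in Col-0, and 11.0% higher and 11.4% lower in bam1. Of 9 genes that touch and wounding induce within minutes, 5 were called lower in Col-0 and 5 in bam1, and TCH3, a calmodulin-like protein, fell by 2.95 in Col-0 (adjusted p = 0.00249) and by 3.33 in bam1 (adjusted p = 0.00157). TCH4, a cell wall enzyme, fell as well, with changes of -3.44 (adjusted p = 0.00412) and -2.27 (adjusted p = 0.017). The summed signal of the 9 genes was 16163 to 25579 in Col-0 control plants, 6393 to 6626 in heat-stressed Col-0, 19001 to 29027 in bam1 control plants and 7959 to 17237 in heat-stressed bam1. The other 4 genes of the list were not called in either genotype, and in bam1 all 4 had changes above 0, of up to 0.31 (WRKY40). Their changes in Col-0 were below 0, as were those of all 9 genes there (highest -0.02). The summed signal of the 10 guard cell markers was 105772 to 113279, 51763 to 57827, 66287 to 87472 and 43447 to 46820 in the same order of groups, with 4 of 10 called lower in Col-0 and 1 of 10 in bam1 and 0 called higher in either. TGG1 gave the highest signal of these markers on every array and weighs most in the sum. Between the genotypes, 0 of the 10 markers were higher in bam1 under control conditions (median -0.71). Under heat 2 of 10 were higher in bam1 (median -0.24). At an unadjusted p under 0.05 in limma, 6 of 10 differed under control conditions and 1 under heat, where 4.0% and 3.27% of all probes did. None of the markers was called between the genotypes. Of the 9 touch and wound genes, 8 were higher in bam1 under control conditions (median 0.11) and 9 under heat (median 0.75, highest 1.65). At an unadjusted p under 0.05 in limma, 0 of these 9 differed under control conditions and 1 under heat. None of the 9 was called between the genotypes.

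Of the markers of other cell types, 2 of 7 for mesophyll were called lower in each genotype. These markers too were read by their brightest probes, and dimmer probes of a gene could change by other amounts. In Col-0 the mean of CAB1 went from 18.04 to 17.58 with heat by its brightest probe and from 13.37 to 10.61 by a dimmer one. That of CA1 went from 16.14 to 16.4 and, by a dimmer probe, from 13.81 to 14.59. For vasculature 1 of 8 was called higher and 1 lower in each (12.5%), close to the shares over all probes. Of 6 for epidermis, 2 were called lower in Col-0 and 0 in bam1. The summed mesophyll signal was 880955 to 899567, 754004 to 801569, 848637 to 888554 and 708643 to 770137 in that order. The summed vasculature signal was 99882 to 130690, 82656 to 95756, 94173 to 113447 and 91251 to 97981. The summed epidermis signal was 77520 to 91451, 62723 to 121237, 67970 to 72575 and 99460 to 112856. LTP1 gave the highest signal of the epidermis markers on every array and weighs most in that sum. It was the only 1 of the 6 with a heat change above 0, at 0.5 in Col-0 and 1.08 in bam1. The median change of the 6 was -0.5 in Col-0 and -0.37 in bam1. The part of these shifts in the heat changes and genotype differences of the jasmonate genes was not tested.

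The spread between the replicates of a group was uneven over the 10 genes. VSP1 and VSP2 deviated together, with replicate 1 minus replicate 2 at -1.73 and -1.64 in Col-0 control plants, -0.39 and -0.53 in heat-stressed Col-0, 1.02 and 0.57 in bam1 control plants, and -0.75 and -0.56 in heat-stressed bam1. LOX2 and JAZ10 were lower in replicate 1 in all 4 groups, and JAZ5 and AOS were higher in it, AOS by only 0.02 in bam1 control plants. Replicate number and slide coincide, so an offset of the slide cannot be told apart from one of the replicate. The touch and wound list had medians of 0.65, 0.24, -0.78 and 0.87 in the 4 groups (in that order), and the signs for VSP1 and VSP2 were opposite to it in every group. Of the 10 genes, 5 (AOS, JAZ1, JAZ2, JAZ5 and JAZ8) shared the sign of that median in 3 of 4 groups and 0 in all 4.

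**Figure D5:**
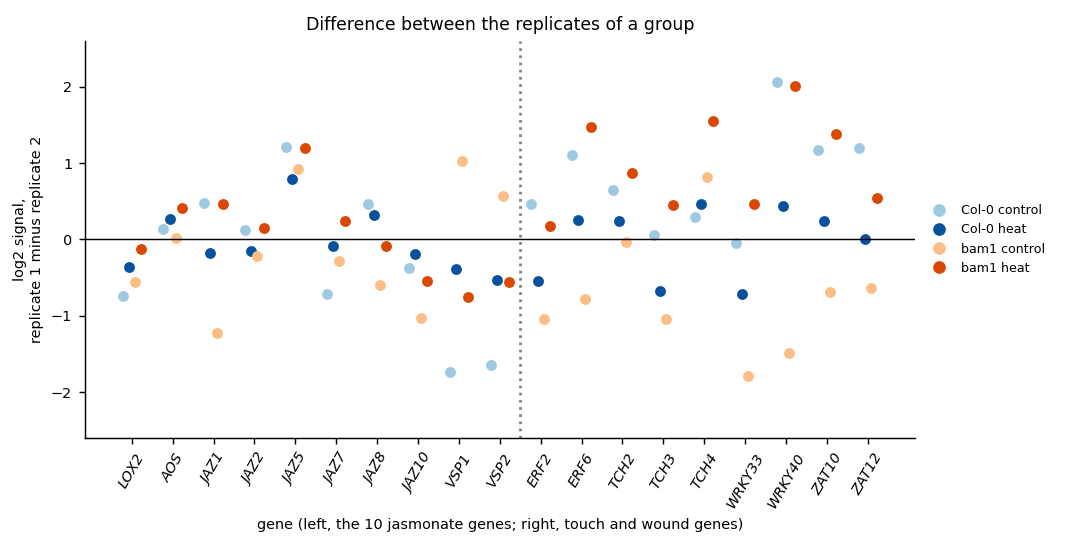
Replicate 1 minus replicate 2 (y axis, log2 signal) in each of the 4 groups, for the 10 jasmonate genes on the left and the 9 touch and wound genes on the right (x axis). VSP1 and VSP2 move together across the groups, and JAZ5 lies above 0 in all 4.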

How the data were processed

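RNA of 8 guard cell preparations was hybridized to Agilent 1-colour arrays (Cy3). The authors deposited the feature extraction output (version 11.5.1.1, design annotation TAIR10), with a background-subtracted intensity for every spot, and a log2 table. The deposited log2 values were matched (99.7% within 0.05) by shifting each array to its 75th percentile and centring each probe on its median. Array intensities carry no counts, so the number of arrays limits the precision. Control and outlier spots were left out, spots of a probe averaged (3 saturated spots on 1 array were kept), and log2 intensities quantile-normalized, as the study's methods state for its arrays. Loci come from the files' accessions through a RefSeq table (34348 of 43603 probes). Probes that both arrays of any group showed well above background entered limma 3.58.1 (R 4.3.3), with 4 group means over all 8 arrays and 4 residual degrees of freedom. The fit was tested on simulated data.

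Same-numbered replicates shared a slide, and their deviations correlated in all 6 pairs of groups (r 0.282 to 0.628), which was read as pairing by slide. The 10 genes and all lists were chosen with earlier results of these data known. All 10 genes are described. Of the further jasmonate genes, up to 8 called per heat comparison are named, and CORI3, TAT3, NAC019, NAC055 and WRKY40 were added after their values were seen. Alternatives were the 75th percentile, normexp background correction (offset 50), the log2 table the authors deposited, other filters on dim probes (none, or well above background on all 8 arrays), a replicate block, the compared groups alone, trend and robust options, the mean of all probes, no fold limit, the methods' t-test, and each array left out. The study's text does not describe these heat arrays.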

Additional observations from a re-analysis of the deposited data

Results flagged for a closer look

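For 3 of the 36 further jasmonate genes tested, the heat change had 1 sign on both slides in Col-0 and the opposite sign on both slides in bam1. The difference of the heat responses, bam1 minus Col-0, was -1.38 for ERF1, which changed by 1.11 and 1.48 in Col-0 and by -0.01 and -0.17 in bam1. It was 0.39 for COI1, the receptor subunit, with -0.23 and -0.40 against 0.01 and 0.13, and 0.32 for JAZ12, with -0.08 and -0.07 against 0.10 and 0.40. In limma's test of that difference, each of the 3 had an adjusted p of 0.999. Some of the changes were close to 0, such as -0.01 for ERF1 and 0.01 for COI1 in bam1. No share over all probes is given for this pattern. None of the 10 genes described above showed such a pattern.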

How the results depend on the processing

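The count of jasmonate genes called with heat in Col-0 was 4, and it was 2 with normexp (VSP1 and VSP2, with JAZ7 at 0.29 and JAZ8 at 0.76), 2 by the methods' t-test at an unadjusted p (JAZ1 and JAZ8), 0 by that test after Benjamini-Hochberg, and between 1 and 5 when an array was left out. It was 1 without Col-0 heat replicate 2 (JAZ8) and 2 without Col-0 heat replicate 1 (VSP1 and VSP2). In bam1 the count was 4. It was 0 by the same adjusted test, and 3, without JAZ5, with no filter on dim probes, by the methods' t-test at an unadjusted p, and without either Col-0 heat replicate, bam1 heat replicate 1 or bam1 control replicate 2; without bam1 control replicate 1 JAZ1 took the place of JAZ5. The replicate block gave 5 in Col-0, through JAZ5, and 4 in bam1, and changed no other call of the 10 genes. The counts between the genotypes and for the difference of the heat responses were 0 under every alternative run for them. The compared groups alone and the methods' t-test were not run for the difference of the heat responses or for the comparison over both conditions. No called change reversed its sign under any alternative, while 1 of 6 uncalled changes in Col-0 and 3 of 6 in bam1 did under at least 1. The BAM1 difference lay between -4.90 and -4.53 with an array left out (exact p = 0.0571), and was -4.69 with genotypes swapped only within the pairs of the replicate block (exact p = 0.125), each the smallest p those designs allow. The cause of these shifts was not tested, beyond the loss of arrays where one was left out. JAZ7 and 1 VSP1 probe lie near background, which limits the size of their changes.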
